A study of Drosophila melanogaster with 2 samples.

Results

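A set of 10 immediate-early and activity-regulated genes, with regulators close to them, was followed in the heads of flies exposed to alcohol. The set holds Hr38, sr, kay, Jra, hry, CrebA, puc, meng, CG14186 and CG17778. The rule takes them by name, and each was found by matching RefSeq transcript accessions to gene symbols and summing the reads of all accessions of a gene. They are 10 of 11256 genes with reads, a total in which entries without a matching symbol each counted as a gene. Of the 10, 9 held at least 50 reads over both libraries, the floor for calling a gene measured. In all, 7822 genes, counted in the same way, did so. Hr38 was below that floor.

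Immediate-early genes are those whose transcription starts within minutes of a stimulus without needing new protein. In the fly brain, Hr38 and sr are used as marks of recent neuronal firing, and CG14186, CG17778, hry and the kinase gene meng have been listed with them in experiments that activated neurons. The AP-1 pair kay and Jra carries signals of the Jun kinase (JNK), a stress-activated kinase, to its target genes, and puc is both a target of that cascade and its inhibitor.

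The data were poly(A) RNA sequences from whole heads of Canton-S females, a wild-type strain of Drosophila melanogaster, taken as adults of 3 to 5 days. The ethanol group breathed ethanol vapor for 15 min, until sedated, then ethanol-free air for 30 min, while control flies had 45 min of ethanol-free air only. With about 180 flies pooled into 1 library per group, replicates are lacking and p-values for the treatment cannot be given. Assigned reads numbered 11763222 for control and 11027646 for ethanol heads, with RNA integrity numbers of 6.80 and 6.40. Photoreceptor markers were abundant, at 299.6 to 29076 RPKM (reads scaled by transcript length and by library total) in the control, and of the ovary markers vas had 6 and 2 reads and osk, otu and Vm26Aa had no reads. The 6 neuronal markers together took 72.3 RPM (reads scaled by library total alone) of control and 63.3 RPM of ethanol reads, none was at 0, and brp, with 3 and 2 reads, was the lowest. The median of the 5 measured ones was -0.37 on the log2 scale of the ethanol to control ratio, with 2 intervals below 0 and 0 above. That median was elav (interval -0.93 to 0.19), and the intervals of nSyb (-0.0094) and Syt1 (0.16) also included 0. The most-read transcripts of these markers were covered only in part in the control, from 2.97% (brp) to 43.9% (nSyb). Their reads therefore cannot be taken as levels of whole genes. A median below 0 was not seen in neuronal markers alone. It was -0.34 for muscle (6 measured, 1736 and 1298 RPM together, 3 intervals below 0 and 1 above, that of fln, which rose). Hemocytes had -0.15 (4 measured, 2 below and 0 above), photoreceptors -0.081 (4 below and 1 above) and fat body -0.041 (5 below and 1 above). The glial median was 0.17 (1 below and 3 above), yet glial markers together went from 578.5 to 481.6 RPM, with Gs2 at 4563 and 2878 reads. The glial marker moody had no reads listed. The part of these differences in the results below was not tested, and in whole heads fewer cells of a type and less RNA per cell cannot be told apart.

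The ethanol to control ratio below is that of reads scaled by each library's total, with a 95% Clopper-Pearson interval that covers counting error only. A gene was said to rise or fall when it was measured, at least 2-fold changed, and had an interval that excluded a ratio of 1. Of the 9 measured genes, 1 rose, hry, where 1.75% of all measured genes rose (137 of 7822). None of the 9 fell, where 0.741% of all measured genes fell (58). With the trend of the ratio on expression level removed, the counts over all genes were 103 and 78. The other 8 did not pass. At any fold, intervals lay above 1 for 4 of the 9 (hry, CG17778, CG14186 and puc), against 23.9% of all measured genes, and below 1 for 1 of the 9 (kay), against 15.0%. The median log2 ratio of the 9 was 0.13, beside 0.049 over all measured genes. Ratios were above 1 for 6 of the 9, and 57.0% of all measured genes were above 1.

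**Figure D1:**
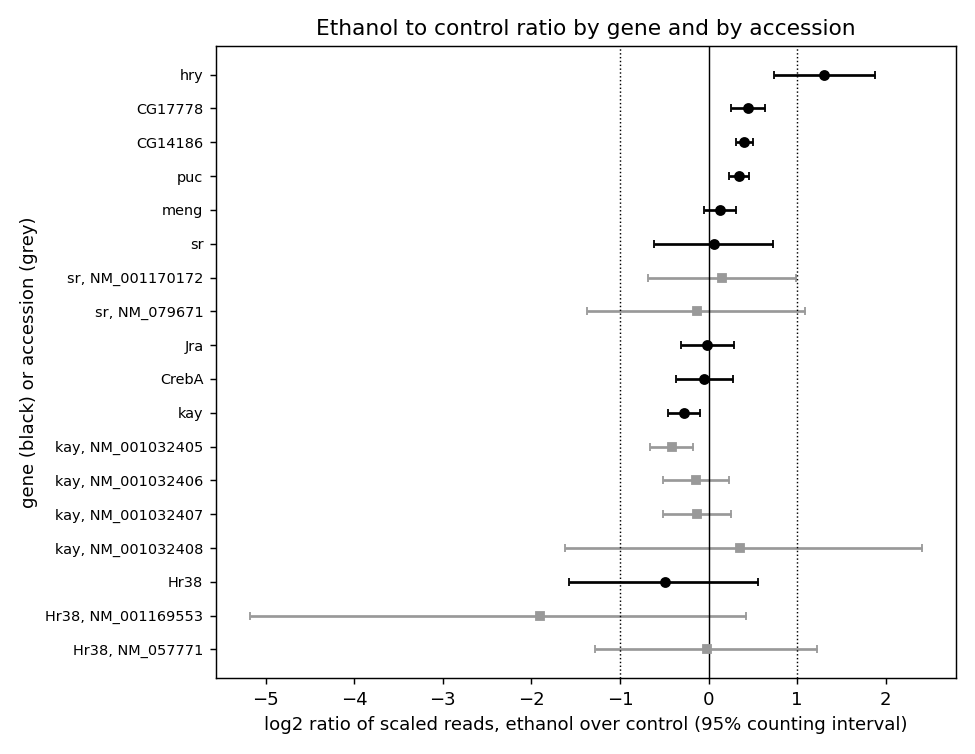
The log2 ratio of scaled reads, ethanol over control (horizontal axis), for each gene (black circles) and, where a gene has several accessions with reads, for each accession (grey squares), with 95% counting intervals from 1 library a group and dotted lines at a 2-fold change. Only hry, at 1.30, lies past the upper dotted line, while CG17778, CG14186 and puc sit between 0.34 and 0.44 with intervals above 0, and kay lies below 0.

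Per unit of transcript length, the 10 genes spanned a wide range of levels. In the control library CG14186 stood highest at 40.0 RPKM, followed by puc at 34.1, CG17778 at 31.7, meng at 19.3, kay at 15.1 and Jra at 10.9. CrebA was at 3.23 RPKM, hry at 1.43, sr at 0.763 and Hr38 at 0.242. Counting intervals of neighbours in this order overlapped for puc and CG17778 and for hry and sr, and for no other neighbours. In the ethanol library CG14186 was at 52.9 RPKM, puc at 43.2, CG17778 at 43.1, meng at 21.0, kay at 12.4 and Jra at 10.8. There hry, at 3.52 RPKM, stood above CrebA, at 3.12, with overlapping intervals, and sr and Hr38 were again last, at 0.806 and 0.168.

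**Figure D2:**
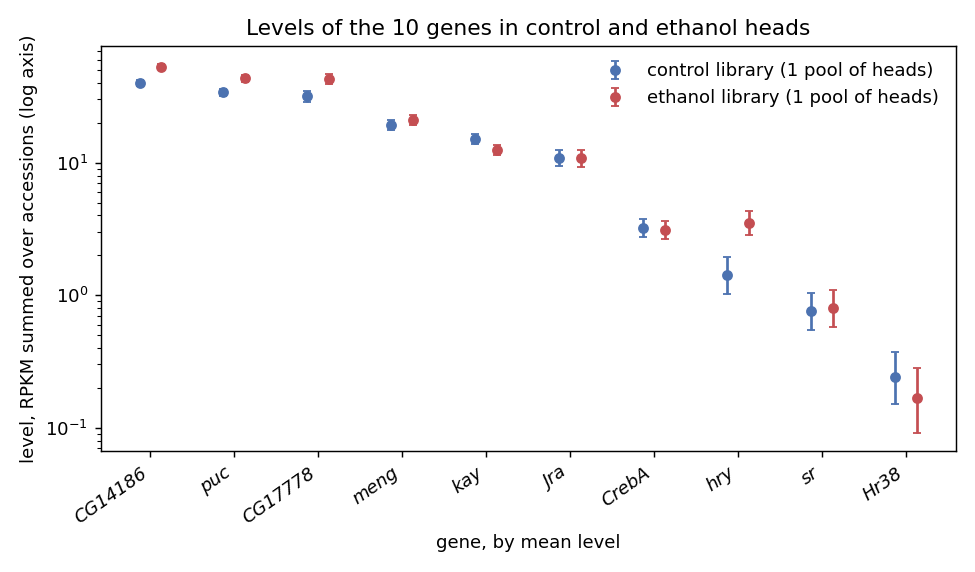
Level of each gene in RPKM summed over its accessions (vertical log axis) in the control (blue) and ethanol (red) library, 1 pool of heads each, with 95% Poisson intervals of the read count scaled to RPKM. The genes run from CG14186 at 40.0 and 52.9 down to Hr38 at 0.242 and 0.168, and hry shows the widest gap between the libraries, 1.43 against 3.52.

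How much of each transcript the reads covered differed sharply among the 10 genes. A single read covered 100 nt in the rows with 1 read (750 rows over both libraries), so the coverage that evenly spread reads would give can be computed. The most-read accessions of CG14186, puc, meng and CG17778 were covered over 99.9%, 99.6%, 98.6% and 97.9% of their length in the control. In contrast, Jra, with 194 control reads on a transcript of 1516 nt, was covered over 15.4%, where evenly spread reads would have covered essentially all of it. Its reads lay on 234 nt in the control and 247 nt in the ethanol library. The most-read accession of kay was covered over 27.4% (332 reads), CrebA over 48.8% (170 reads) and hry over 14.7% (39 reads), where even spread would cover nearly all of the first, 97.8% of the second and 82.05% of the third.

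Partial coverage was more frequent among genes with several annotated accessions. Among accessions whose reads would cover them at least 5 times in each library, 1.51% of the 2587 belonging to genes with 1 annotated accession were covered over less than 50% of their length in the control, against 27.5% of the 3227 of genes with more than 1. Lengths held by 1 transcript only were taken from an Ensembl annotation of the Release 6 genome, whose transcripts can differ from those counted. For Jra they are 1525 or 1565 nt long there, where the counted one has 1516 nt. In that annotation, 1 of the 3 Jra transcripts has 117 nt that no other Jra transcript holds and the others have 0. For hry the longer of its 2 transcripts has 196 nt of its own and the shorter 0, and for CrebA these lengths are 1309 and 0 nt. Of the 26 accessions that RefSeq Release 6 annotates for the 10 genes, 15 had reads here. Whether all 26 were among the transcripts counted was not given, so one without reads may not have been counted. The fully covered genes puc, meng and CG17778 also have 2 annotated accessions each, of which 1 had reads. Whether reads shared by several transcripts were left out of the counts was not tested, and the RPKM of genes covered in part cannot be taken as the level of the whole gene. Dividing read bases by the bases actually covered gave another order in the control library, with Jra highest at 82.9 read bases per covered base, ahead of CG14186 at 47.1, puc at 40.2, CG17778 at 38.05, the most-read kay accession at 36.1, meng at 23.0, hry at 11.4 and CrebA at 7.78.

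**Figure D3:**
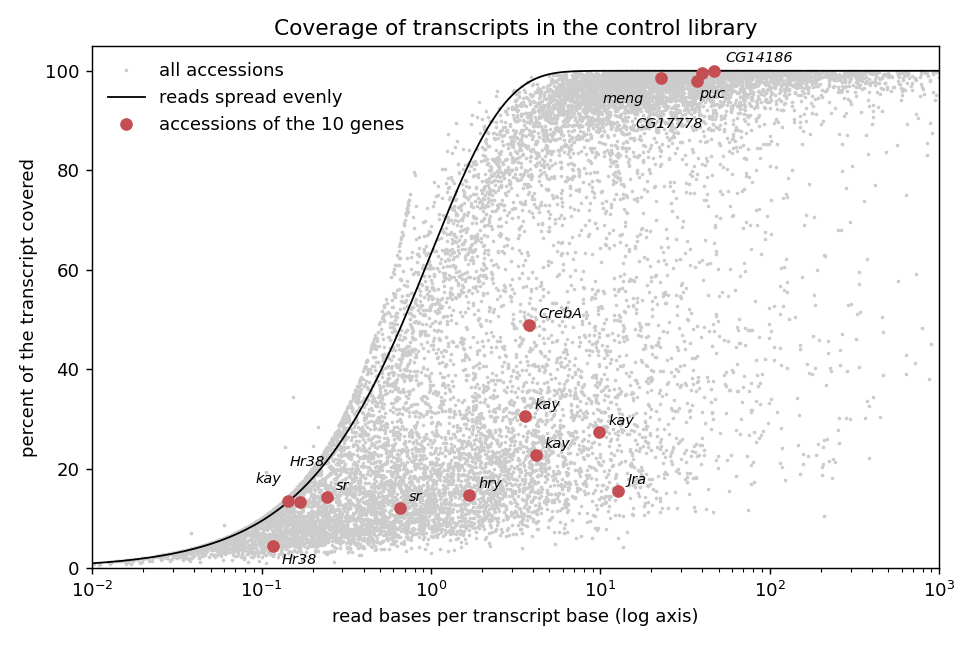
Percent of a transcript covered by reads (vertical axis) against read bases per transcript base (horizontal log axis) for every accession with reads in the control library (grey), the accessions of the 10 genes (red) and the curve that evenly spread reads would follow (black). CG14186, puc, meng and CG17778 lie near full coverage, whereas Jra (15.4%), hry (14.7%), CrebA (48.8%), 3 kay accessions and the most-read sr accession (12.0%) lie far below the curve.

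The classic marks of neuronal firing had few assigned reads in both libraries. Hr38 encodes the only NR4A-type nuclear receptor of the fly, the counterpart of mammalian NR4A activity genes. It had 21 control reads (95% Poisson interval 13.0 to 32.1) and 14 ethanol reads (7.65 to 23.5). Its 2 accessions had 13 and 12 reads (NM_057771) and 8 and 2 reads (NM_001169553). The ratio of 0.711 had an interval of 0.334 to 1.47, so no ratio within that range is excluded by these counts. The zinc finger gene sr (stripe), the fly member of the Egr family, which also directs tendon cell fate, had 40 control and 39 ethanol reads. Its accession NM_001170172 held 26 and 27 of them, and NM_079671 held 14 and 12. The sr ratio was 1.04 with an interval of 0.652 to 1.66, which leaves out a 2-fold change in either direction as far as counting error goes. Neither gene differed between the libraries by more than counting error. Both were covered in part. In the control NM_001170172 of sr was covered over 12.0%, where even spread of its reads would give 48.5%, and NM_079671 over 14.4% against 21.8%. For Hr38 the most-read NM_057771 was covered over 13.35% against 15.6%, close to even spread. The less-read NM_001169553 was covered over 4.57% against 11.1%. In the Ensembl annotation, which can differ from the transcripts counted, 4 of the 5 sr transcripts and 1 of the 2 Hr38 transcripts have 0 nt of their own. Whether reads shared by several transcripts were left out was not tested, so their few reads cannot be taken as the level of the whole gene.

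Neither AP-1 gene passed the rule. The Fos gene kay had 596 control and 460 ethanol reads, a log2 ratio of -0.28 with an interval of -0.46 to -0.10. More than 1 accession contributed: NM_001032405 alone held 55.7% of the control reads and 50.7% of the ethanol reads. That accession had 332 and 233 reads (log2 ratio -0.42, interval -0.67 to -0.17). Its other accessions together had 264 and 227 reads (-0.12, -0.39 to 0.14). The intervals of these sets overlap, and the difference between them was not tested. On NM_001032405, of 3360 nt, the covered stretch was almost equal in both libraries, 920 nt and 913 nt. The Jun gene Jra, the partner of kay, had 194 and 180 reads (log2 ratio -0.015, -0.32 to 0.29).

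The gene puc (puckered) encodes a phosphatase that inactivates JNK. It was deeply and fully covered, with 1171 control and 1393 ethanol reads. Its ratio of 1.27 (interval 1.17 to 1.37) lay above 1 and did not reach 2-fold, and 17.1% of measured genes had a larger ratio. So among these genes of the AP-1 system, the inhibitor puc had an interval above 1, kay one below 1, and that of Jra included 1. In the control, reads covered 27.4% of the most-read kay accession and 15.4% of the Jra transcript. The kay and Jra ratios therefore cannot be taken as those of the whole genes.

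Of the genes tied to CREB, neither passed the rule. CrebA, a bZIP factor of the CREB3 type that raises secretory capacity in fly glands, had 170 and 154 reads (ratio 0.966, interval 0.772 to 1.21). The kinase gene meng (meng-po), whose product is reported to stabilise the memory factor CrebB in flies, had 514 and 526 reads (ratio 1.09, 0.965 to 1.24). Both intervals included 1, and both exclude a change of 1.5-fold in either direction as far as counting error goes. In the control the meng transcript was covered over 98.6% and that of CrebA over 48.8%. For CrebA this therefore holds for the counted reads and cannot be taken for the whole gene.

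Only hry (hairy) rose. It encodes a bHLH repressor of the Hairy and Enhancer of split family, known from embryonic segmentation, that recruits the co-repressor Groucho. It had 39 control reads (95% Poisson interval 27.7 to 53.3) and 90 ethanol reads (72.4 to 110.6), a 2.46-fold rise with an interval of 1.67 to 3.68. Its ratio was exceeded by 0.703% of measured genes. All reads were assigned to the accession NM_001014577, of 2321 nt, and the other annotated accession had no reads listed. The stretch they covered also grew, from 341 nt in the control to 618 nt in the ethanol library, while read bases per covered base went from 11.4 to 14.6. These stretches are 14.7% and 26.6% of the transcript. The ratio of hry therefore cannot be taken as that of the whole gene. With 1 RPKM added to both levels the log2 ratio was 0.90, below the 2-fold line.

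The genes of uncharacterised name, CG14186 and CG17778, were among the best measured. CG14186 had 1649 control and 2045 ethanol reads, a ratio of 1.32 (interval 1.24 to 1.41), and 13.3% of measured genes had a larger one. CG17778 had 417 and 532 reads, a ratio of 1.36 (1.19 to 1.55), exceeded by 11.3% of measured genes. Both were covered nearly to their full length in each library (97.7% or more), and neither reached 1.5-fold, a size that 5.97% of measured genes passed upward and 2.86% downward with intervals that excluded 1.

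The authors' deposited table lists a false discovery rate per transcript, which compares the reads of 2 libraries and not the conditions. In the authors' deposited table, 4 of the 15 rows of these genes were higher with a rate under 0.05 (hry, CG17778, CG14186 and puc), against 10.7% of its 15090 rows. By the authors' deposited table, 1 of the 15 was lower (kay, NM_001032405), against 6.95% of rows.

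Other genes reported to respond to neuronal activity, or fly counterparts of mammalian immediate-early genes, did not share a direction. For this list and those that follow, the background is the set of all measured genes. Of that set 1.75% rose, 0.741% fell, 23.9% had intervals above 1 and 15.0% below, with a median log2 ratio of 0.049. Of 6 measured in that list, cbt rose, 0 fell and 5 did not pass, 2 intervals lay above 1 and 3 below, and the median log2 ratio was -0.092. The Krüppel-like factor gene cbt had 691 and 3259 reads (5.03-fold, interval 4.63 to 5.47), on accessions of which the most read was covered over 23.2%. Atf3, a stress-induced bZIP gene, had 2313 and 1542 reads on a transcript covered over 98.5%, a log2 ratio of -0.49 (-0.59 to -0.40). The capsid-like gene Arc1, the fly relative of mammalian Arc, had 3641 and 3736 reads (log2 interval 0.064 to 0.20) and its neighbour in name Arc2 56 and 53. CG8910 had 533 and 429 reads and CG46385 1103 and 901, with both intervals below 1. CG13055 (15 and 16 reads) and Ets21C (21 and 8) were below the floor, and CG13868 had no reads listed.

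Upstream of AP-1, 1 of 16 measured genes of the JNK cascade fell and 0 rose, with a median log2 ratio of -0.15, 1 interval above 1 and 4 below. The gene that fell was Traf4, an adaptor between receptors and the kinases, with 61 and 24 reads on an accession covered over 20.3% in the ethanol library (ratio 0.420, interval 0.250 to 0.683). Mkk4, a kinase that activates JNK, was next, with 74 and 39 reads (-0.83, -1.43 to -0.25), covered over 23.3% in the control. Of 4 measured genes reported as JNK or AP-1 targets, 0 passed the rule (median -0.13, 1 interval above 1 and 1 below). The ends of that list were scaf (81 and 50 reads, log2 ratio -0.60) and the lipocalin gene NLaz (482 and 557 reads, 0.30). Their most-read transcripts were covered over 9.02% and 96.4% in the control. In the p38 pathway 0 of 5 passed, with p38c at 66 and 103 reads (1.66-fold, 1.21 to 2.30) and Mekk1 at 87 and 60 (0.736, 0.520 to 1.03). Control coverage was 91.1% for p38c and 17.6% for Mekk1.

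In the EGFR, Ras and ERK pathway, which also feeds immediate-early genes in many animals, 1 of 19 measured genes rose and 0 fell (median log2 ratio -0.038). In that list 5 intervals lay above 1 and 7 below. The gene that rose was rl (rolled), the ERK kinase gene, with only 14 and 41 reads spread over 5 of 7 annotated accessions (3.12-fold, interval 1.67 to 6.20). The receptor gene Egfr had 73 and 36 reads (log2 ratio -0.93, -1.54 to -0.33), and its most-read transcript was covered over 9.07% in the control. Of 16 measured genes of calcium, cAMP and CREB signalling, 0 passed the rule, with 3 intervals above 1 and 5 below (median -0.038). The 2 with the largest ratios were both calmodulin-dependent kinases. CaMKII had 104 and 173 reads (1.77-fold, 1.38 to 2.29), counted on 3 of 12 annotated accessions, and CaMKI 166 and 269 reads (1.73-fold, 1.42 to 2.11).

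The relatives of hry held 1 other rise. Among 11 measured genes of the hairy and Enhancer of split family and of Notch signalling, E(spl)mbeta-HLH rose, 0 fell, 2 intervals lay above 1 and 0 below, and the median log2 ratio was 0.19. E(spl)mbeta-HLH, a bHLH repressor gene induced by Notch, had 75 and 174 reads on a transcript covered over 88.0% in both libraries (2.47-fold, 1.88 to 3.29). Ser, a Notch ligand gene, had 22 and 34 reads (1.65-fold, 0.937 to 2.96) on a transcript covered over 27.4% in the control.

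None of the lists built around Hr38, CrebA and the AP-1 proteins held a gene past the rule. Among 9 measured nuclear receptors and ecdysone response genes, 1 interval lay above 1 and 2 below (median -0.14). Hnf4 had 209 and 287 reads (log2 ratio 0.55, 0.29 to 0.81) and ftz-f1 320 and 216 (-0.47, -0.73 to -0.22). Among 12 measured bZIP genes other than members of the 10, 4 intervals lay above 1 and 1 below (median 0.080). Atf3 was at -0.49, and tj, a Maf factor gene, had 264 and 334 reads (0.43, 0.20 to 0.67). All 29 genes of the secretory pathway, a set that CrebA is known to activate in fly embryos, were measured. Of these 0 passed, 10 intervals lay above 1 and 3 below (23.9% and 15.0% over all measured genes), and the median was 0.062. Sec31 had the largest ratio (28 and 40 reads, log2 interval -0.13 to 1.36) and gammaCOP the smallest (204 and 135 reads, -0.83 to -0.18). Their most-read transcripts were covered over only 9.37% and 7.89% in the control. Neither ratio can be taken as that of the whole gene, a limit shared by every listed gene covered in part.

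**Figure D4:**
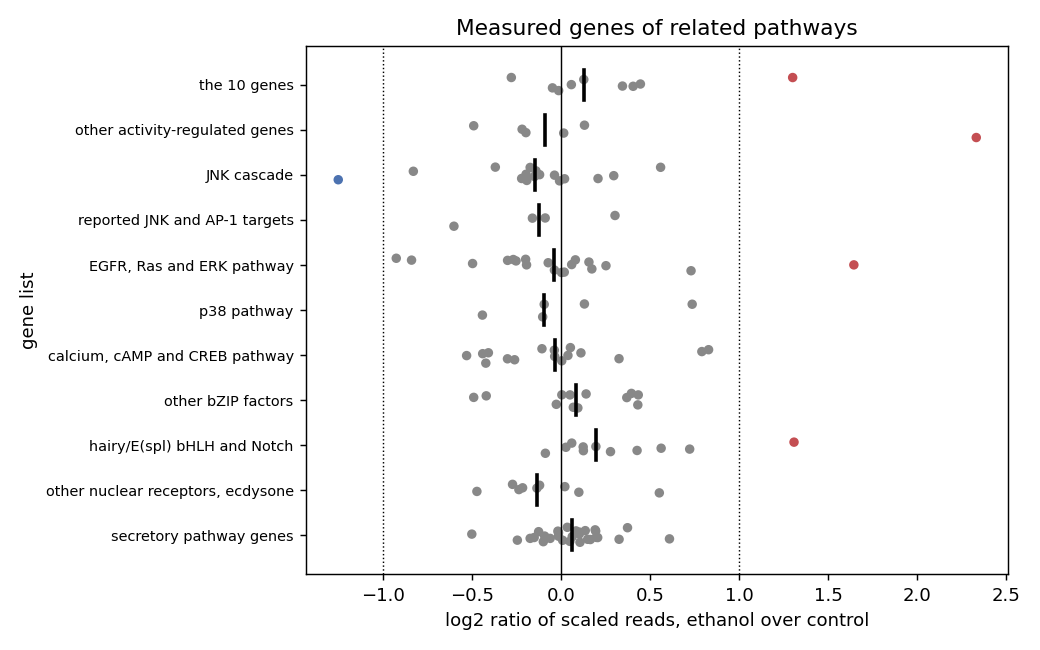
The log2 ratio, ethanol over control (horizontal axis), of each measured gene of the 10 and of 10 lists of related genes (rows), with list medians as vertical bars, genes that rose in red, genes that fell in blue and dotted lines at 2-fold. Medians run from -0.15 (JNK cascade) to 0.19 (hairy and Enhancer of split genes with Notch signalling), and the points past the lines are hry, cbt, rl and E(spl)mbeta-HLH upward and Traf4 downward.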

How the data were processed

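Heads of 2 pools of flies gave 1 library each, control and ethanol. The authors deposited, for every RefSeq accession, the count of its unique reads, how many percent of its length they covered, and RPKM, per the file headers. A table of both libraries holds the authors' log2 ratio, p-value and FDR, per its file header. BDGP 5 was the build, per the submitters' processing notes. Lengths that no other transcript of a gene holds came instead from an Ensembl annotation of the Release 6 genome. For the test behind those values, the aligner, the counter, strand use and shared reads, details were not given in the sources used, so overlapping genes cannot be told apart. Of 15090 accessions, 14521 matched a gene symbol of the RefSeq Release 6 annotation, and reads were summed per gene (pandas 2.3.3). The other 569 were kept, each as a gene of its own, in the totals and shares over all genes. Intervals came from scipy 1.17.1. The functions were tested on simulated data. Reads are not independent molecules, so intervals cover counting error only.

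The members, the gene lists and the alternatives were chosen with earlier results of these data known. All 10 genes were named whatever their values. From each list the genes past the rule and the 2 with the largest ratio in either direction were named, and the list of other activity-regulated genes was given in full, a choice made after its values were seen. A pair of names of 1 gene in that list was merged. Lists share Atf3, CrebB and Ets21C. Alternatives were 3 scalings (TMM by edgeR 4.0.16, median of ratios, and totals less the 10 top genes), read floors of 20, 200 and 1, a 1.5-fold threshold, pseudocounts of 1 and 0.1 RPKM, summed RPKM, the most-read accession only, and removal of a lowess trend (statsmodels 0.14.6, fraction 0.3). Restriction to genes covered over at least 80% was added after seeing the data. Promoter motifs, planned at first, were not analysed here.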

Additional observations from a re-analysis of the deposited data

How the results depend on the processing

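No paired analysis was possible because each group has 1 library. The count of genes among the 10 that rose was 1 (hry) under 10 of 13 alternatives. It was 0 with a floor of 200 reads, which leaves hry out, 0 with a pseudocount of 1 RPKM (log2 ratio of hry 0.90), and 0 among genes covered over at least 80% in both libraries, which also leaves hry out. No gene of the 10 fell under any alternative. Wherever they were tested, hry, puc, meng, CG14186 and CG17778 stayed above a ratio of 1, and kay, Jra, CrebA and Hr38 below it. Read floors and fold thresholds cannot change a ratio, and the alternative scalings lowered every ratio. In the main setting the intervals of meng, Jra, CrebA and Hr38 included 1. The sr log2 ratio ranged from -0.044 to 0.15. The largest shift of the median of all genes by a scaling was -0.064. Over all measured genes, the counts higher and lower were 258 and 127 with a floor of 20 reads, 38 and 10 with a floor of 200, 301 and 153 with no filter (genes with reads in both libraries), 467 and 224 at 1.5-fold, 51 and 9 with a pseudocount of 1 RPKM, and 39 and 10 among the 4836 genes covered over at least 80%. Counting error was widest for Hr38 and sr, which had the fewest reads of the 10; whether shared reads were left out of their counts was not tested.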
